A study of Arabidopsis thaliana with 4 samples.

Results

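MAP kinase cascades pass a signal from kinase to kinase by phosphorylation. A MAP3K activates a MAP kinase kinase (MKK), the MKK activates a MAP kinase (MPK), and the MPK phosphorylates transcription factors, enzymes and cytoskeletal proteins. In Arabidopsis the cascades are known for their roles in immunity, stomatal patterning, cell division, ethylene synthesis and stress responses. In seedlings leaving darkness, MKK10 and MPK6 are also known to act on PIF3, the phytochrome-interacting factor named in the title of the series. The MPK and MKK genes described here were chosen by name, as the protein-coding genes whose symbol or synonym in the gene table is exactly MPK1 to MPK20 or MKK1 to MKK10. The family was proposed with its summits in this list already known, so every count below is a description and no test was made of it.

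Of the 30 names searched, 29 were found, 19 MPK and 10 MKK genes, among 27444 nuclear protein-coding genes. MPK13 was not found as such. A gene listed only under the symbol ATMPK13 (AT1G07880) was kept out of the counts, and its value is given separately. MPK8 and MKK1 carry the table symbols ATMPK8 and MEK1.

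The data were a single list of TCP4 binding summits made by chromatin immunoprecipitation followed by sequencing (ChIP-seq) with an anti-Myc antibody. Material came from Arabidopsis thaliana seedlings grown for 4 days in darkness, after 3 days at 4 °C and a white light treatment of 3 to 4 h. The wild type (Col) and a TCP4 overexpression genotype (mTCP4) each gave 1 ChIP library and 1 input library, and the list compares mTCP4 with Col. The labels name neither the promoter of the overexpression line nor the number of independent lines. TCP4 is a CIN-type TCP transcription factor.

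The list held 7470 summits in 6220 numbered peaks. Each summit has a pileup (the scaled number of mTCP4 fragments covering it) and a fold, which is the authors' ratio of that pileup to the control level there. With 1 library per group there was no replicate error. The interval after a fold is the exact 95% Poisson interval of the fragments at the summit with the control level held fixed. It covers only the counting error of those fragments. Over all summits the median fold was 3.43, with quartiles of 2.76 and 4.72. Summit positions are those of build TAIR10. A gene was counted as having a summit where one lay inside it or within 1000 bp of either end. The gene table has no strand, so the ends are called lower and higher by coordinate, and upstream and downstream were not told apart.

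Summits lay at 9 of 19 MPK genes (47.4%) and at 2 of 10 MKK genes (20%). Across all protein-coding genes the share was 19.7%. The MPK genes with a summit were MPK3, MPK5, MPK8, MPK9, MPK12, MPK15, MPK18, MPK19 and MPK20, and the MKK genes were MKK1 and MKK9. Both tiers are small. The exact 95% binomial intervals of their shares were 24.4 to 71.1% for MPK and 2.52 to 55.6% for MKK. Such intervals treat genes as independent draws. The members are families chosen with their summits known, so nothing is concluded from the overlap. The difference between the tiers was not tested. ATMPK13 had 1 summit, 284 bp outside its lower end, with a fold of 3.61 (2.85 to 4.51). Counted as an MPK gene, it would bring that tier to 10 of 20.

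**Figure D1:**
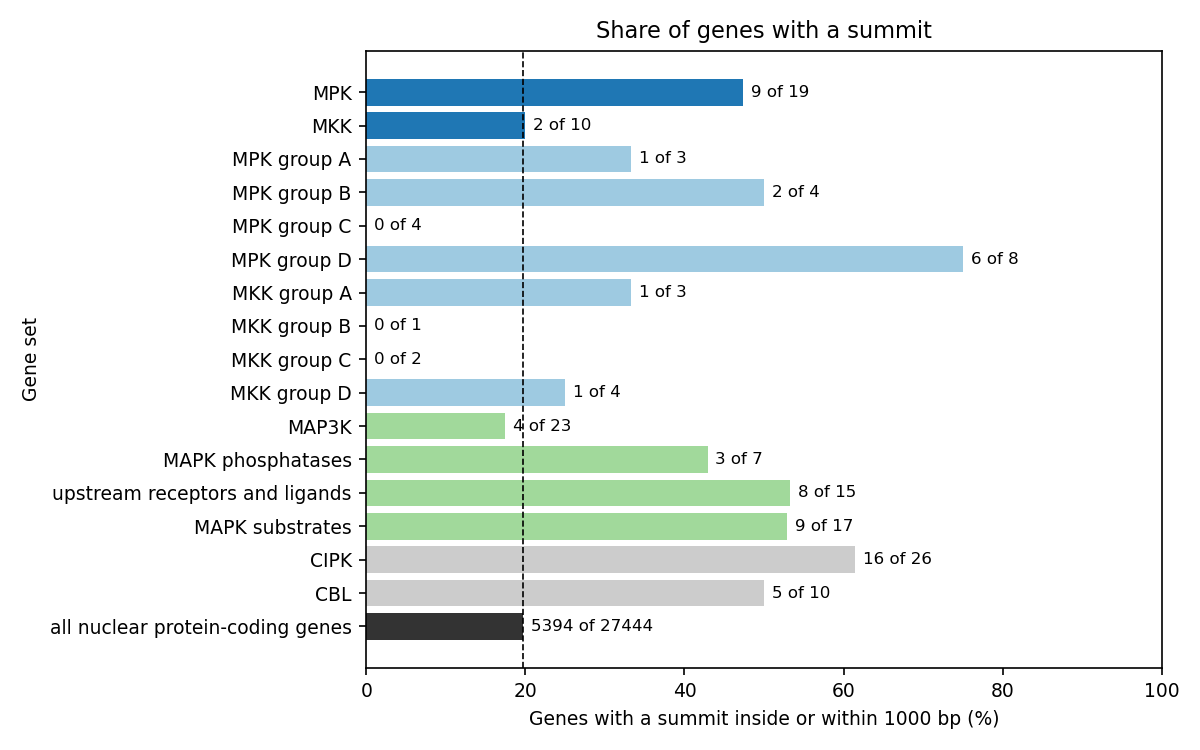
Percent of genes with a summit inside or within 1000 bp (x axis) for each gene set (y axis), with the number of genes beside each bar. Dark blue bars are the tiers, light blue bars their groups, green bars other cascade genes, grey bars calcium sensor and kinase families, and the dashed line is the 19.7% of all nuclear protein-coding genes. The bar for MPK group D, 6 of 8, is the longest, and MPK group C has none.

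Plant MAP kinases fall into groups A to D by sequence. The kinases of groups A to C carry the activation motif TEY, and those of group D carry TDY. Of the 9 MPK genes with a summit, 6 belonged to group D, where 6 of 8 genes (75%) had one. Group A had 1 of 3, group B 2 of 4 and group C 0 of 4, together 3 of 11 genes (27.3%). The 4 members with more than 1 summit, MPK15, MPK18, MPK19 and MPK20, were also all of group D. They made up 50% of group D and 13.8% of all members. Of all protein-coding genes 5.6% had 2 or more summits, a share not matched for gene length or gap. The summits of MPK19 are parts of 1 numbered peak.

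Group D genes were also long and had wide gaps beside them. Their lengths were 3442 to 4296 bp, against a median of 2078 bp over all protein-coding genes, and in 8 of 8 the larger of the gaps to the neighbouring protein-coding genes was over 1000 bp. Of all genes with such a gap 22.8% had a summit, and of those with smaller gaps 14.7%. Among genes with such a gap and a length in the range of group D the share was 30.7% (440 of 1432), above the 19.7% of all genes. In the MPK tier 8 of 13 genes with a gap over 1000 bp had a summit and 1 of 6 genes with smaller gaps, and in the MKK tier the counts were 1 of 3 and 1 of 7. The median larger gap was 2046 bp in the MPK tier and 776.5 bp in the MKK tier. The part that gap and length play in the difference between tiers or groups was not tested.

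**Figure D2:**
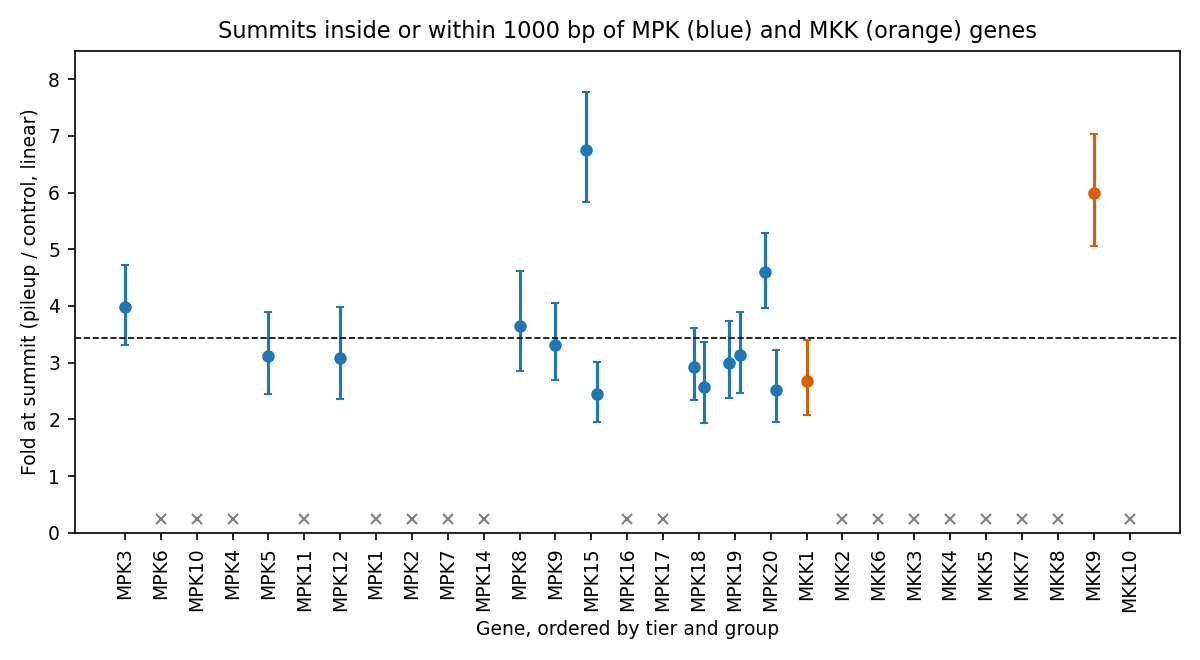
Fold at each summit inside or within 1000 bp (y axis, linear ratio of pileup to control level) for the 29 genes (x axis), ordered by tier and group. Points are summits, bars are exact 95% Poisson intervals, grey crosses mark genes with no summit, and the dashed line is the median of all summits, 3.43. MPK15 and MKK9 stand highest, with folds of 6.75 and 5.99.

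The 15 summits at members comprised 13 at MPK genes and 2 at MKK genes. Most were of ordinary height for this list. The median fold was 3.11, and 5 of the 15 lay above the median of all summits. Their fragments ran from 51 to 192 with a median of 76, against 86 over all summits. Their control levels ran from 12.9 to 30 with a median of 17.5, against 16.4 over all summits, and 1 of the 15, at MPK12, was at the lowest control level in the list, which 18.3% of all summits had.

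In group D, MPK15 (AT1G73670) had the highest fold of any member. Its main summit lay 660 bp outside the lower end, at position 27699211 of chromosome 1, with a pileup of 140.75 over a control level of 20. The fold was 6.75 (5.83 to 7.77), above that of 91.9% of all summits. A second summit, at position 27700010 and 139 bp inside the gene from the same end, had a pileup of 62.64, a control level of 25 and a fold of 2.45 (1.96 to 3.02). The intervals of these folds did not overlap, so the fold outside the gene exceeded the fold inside it by more than the counting error of the mTCP4 fragments. The error of the control level is not included.

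MPK20 (AT2G42880) had the next highest fold among MPK genes, 4.60 (3.97 to 5.29), 399 bp outside its lower end at position 17839769 of chromosome 2. Its pileup of 141.48 was slightly above that at MPK15. The control level under it, 30, was the highest of any member summit. The gap of 2549 bp that holds this summit is shared with PAR1, an HLH gene of the shade response, and a further summit with a fold of 3.85 (3.21 to 4.58) lay 858 bp from PAR1 and 1692 bp from MPK20. At the other end of MPK20 a summit lay 825 bp out at position 17845205. Its fold was 2.52 (1.95 to 3.22), and there the gene AT2G42885 was nearer, at 498 bp.

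MPK18 (AT1G53510), a kinase that acts on cortical microtubules, had both of its summits beyond its higher end on chromosome 1. The nearer, at position 19974544, was 151 bp out with a fold of 2.92 (2.34 to 3.62). The farther, at position 19975286, was 893 bp out with a fold of 2.57 (1.93 to 3.36). Their intervals overlapped. MPK19 (AT3G14720) had its summits 218 bp and 11 bp outside its lower end, at positions 4945383 and 4945590 of chromosome 3. The folds were 3.00 (2.38 to 3.74) at the first and 3.13 (2.47 to 3.90) at the second, and the list gives both as parts of 1 numbered peak.

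Around MPK18 and MPK19 the strongest signal lay beyond 1000 bp. A summit 1697 bp from MPK18, at position 19976090, reached a fold of 6.64 (5.75 to 7.63), and it was 296 bp from FAP3, a fatty-acid-binding protein gene. A summit 2274 bp from MPK19, at position 4943327, reached a fold of 9.25 (7.98 to 10.7), and it was 263 bp from AT3G14710. In each case the interval lay above those of the summits close to the kinase gene, and the neighbour, not the kinase gene, was the nearest gene.

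MPK8 and MPK9 each had 1 summit close to the lower end. MPK8 (AT1G18150), a kinase of the wound response, had a pileup of 50.11 over a control level of 13 at position 6244165 of chromosome 1, 133 bp outside the gene. Its fold was 3.65 (2.85 to 4.61). MPK9 (AT3G18040), which acts with MPK12 in guard cells, had a pileup of 70.74 over 20.6 at position 6173976 of chromosome 3, 263 bp outside the gene, with a fold of 3.32 (2.70 to 4.05). The intervals of these folds overlapped and included the median of all summits. The remaining group D genes, MPK16 and MPK17, had their nearest summits 13742 bp and 15920 bp away.

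**Figure D3:**
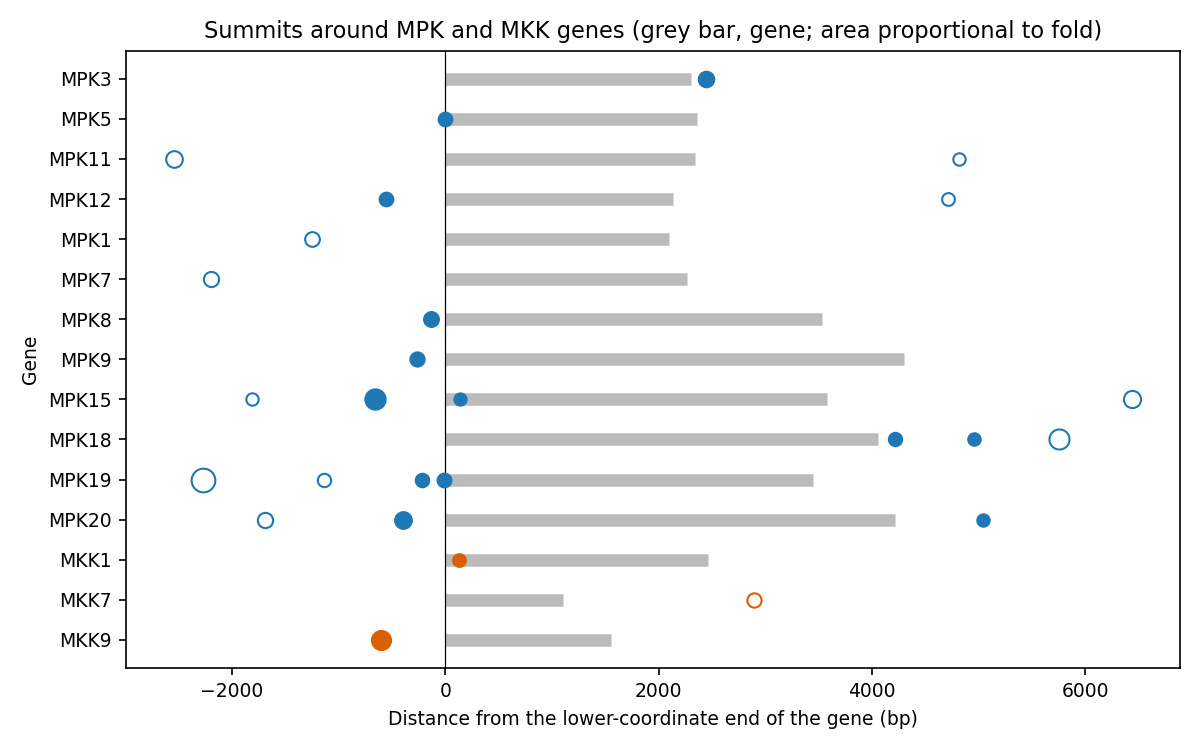
Summits up to 3000 bp outside each gene (y axis) plotted by distance in bp from its lower-coordinate end (x axis). Grey bars are the genes to scale, filled circles are summits inside or within 1000 bp, open circles are summits farther out, and circle area is proportional to fold. Of the plotted summits, those of MPK15 and MKK1 at 139 and 131 bp fall inside the grey bars, and large open circles lie beyond 1000 bp at MPK18 and MPK19.

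In group A, MPK3 (AT3G45640), which acts with MPK6 in immunity and stomatal patterning, had a summit at position 16759011 of chromosome 3. The pileup was 92.11 over a control level of 22.4, and the fold was 3.98 (3.32 to 4.73). The summit was 137 bp beyond the higher end of MPK3 and inside the neighbouring gene NAXT1, a nitrate transporter gene, so the list does not assign it to MPK3 alone. MPK6 and MPK10 had no summit within reach, with the nearest at 9706 bp and 14160 bp.

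In group B, MPK5 (AT4G11330) had a summit 5 bp outside its lower end at position 6891921 of chromosome 4, the closest of any outside a member. Its pileup was 53.79 over 16.6 and its fold 3.11 (2.45 to 3.90). MPK12 (AT2G46070), a guard cell kinase, had a summit 561 bp outside its lower end at position 18945376 of chromosome 2. It had a pileup of 42.00 over 12.9 and a fold of 3.09 (2.36 to 3.98). That summit was nearer to AT2G46060, at 264 bp. MPK4, a regulator of immunity and cytokinesis, and its close relative MPK11 had none, with the nearest at 7196 bp and 2480 bp.

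The genes of group C, which are known to act downstream of MKK3, had no summit within 1000 bp. MPK1 lay just outside the limit, 1255 bp from a summit with a fold of 3.55 (2.95 to 4.24) that falls inside WLIM1. MPK7 had its nearest summit at 2201 bp with a fold of 3.79 (3.02 to 4.70), MPK14 at 15192 bp and MPK2 at 25448 bp. Just inside the limit lay the farther MPK18 summit at 893 bp and the higher-end summit of MPK20 at 825 bp.

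Among the MKK genes, MKK9 (AT1G73500), which is known to activate MPK3 and MPK6 and to promote ethylene synthesis, had the higher fold. Its summit lay 603 bp outside the lower end at position 27638488 of chromosome 1, with a pileup of 106.85 over a control level of 17.0. The fold was 5.99 (5.06 to 7.04), above that of 87.7% of all summits, and its interval overlapped that of MPK15. MKK1 (AT4G26070), which acts with MKK2 upstream of MPK4, had a summit 131 bp inside its lower end at position 13217606 of chromosome 4. The pileup was 47.16 over 17.0 and the fold 2.68 (2.07 to 3.40). The folds of the 2 MKK genes thus differed by more than the counting error of the mTCP4 fragments, with the error of the control level not included.

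The other 8 MKK genes had no summit within reach. MKK7, which affects auxin transport, was nearest at 1789 bp, with a fold of 3.35 (2.59 to 4.28) at a summit inside AT1G18360. MKK4 and MKK5, the usual activators of MPK3 and MPK6, had their nearest summits at 6137 bp and 3827 bp. The distances were 5914 bp for MKK2, 9962 bp for MKK3, 15721 bp for MKK6 and 28890 bp for MKK8. MKK10 was the farthest of all members, with its nearest summit at 34839 bp. MKK10 and MPK6, the kinases known to act on PIF3, both had no summit within reach. The larger gaps beside them were 890 bp and 442 bp. Of all protein-coding genes 19.7% had a summit, and of those with gaps of 1000 bp or less 14.7%. Nothing is therefore read from its absence at MKK10 and MPK6.

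Some members are known to act together or are closely related in sequence, and the pairs named here were picked after their values were seen. MPK3 had a summit and MPK6 did not, and MKK1 had one and MKK2 did not. Both genes had one in the pairs MPK9 and MPK12, and MPK18 and MPK19. The summit of MPK3 is inside NAXT1 and that of MPK12 is nearer to AT2G46060. With nearest genes only, MPK3 and MPK12 would thus count as having none. Neither gene had one in the pairs MKK4 and MKK5, MPK4 and MPK11, MPK1 and MPK2, and MPK7 and MPK14.

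Of the 15 summits at members, 13 were outside the kinase gene, at 5 to 893 bp, and 2 were inside it. One of the 13, at MPK3, was inside a neighbouring gene. Over all 7465 pairs of a protein-coding gene and a summit within the same reach, 69.8% of summits were outside the gene of the pair. Within 300 bp of an end or inside the gene lay 9 of the 15, against 57.6% of all pairs. The member was the nearest protein-coding gene for 12 of the 15 summits, against 75.3% of all pairs. Of the 11 members with a summit 9 were nearest to at least 1 of theirs, all but MPK3 and MPK12, against 77.7% of all genes with a summit. The counts of distance within 300 bp and of nearest genes are close to those of all genes. The count of 13 outside the gene rests on 15 summits, and its difference from all pairs was not tested. Nothing is read from any of these counts about the kinase genes.

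**Figure D4:**
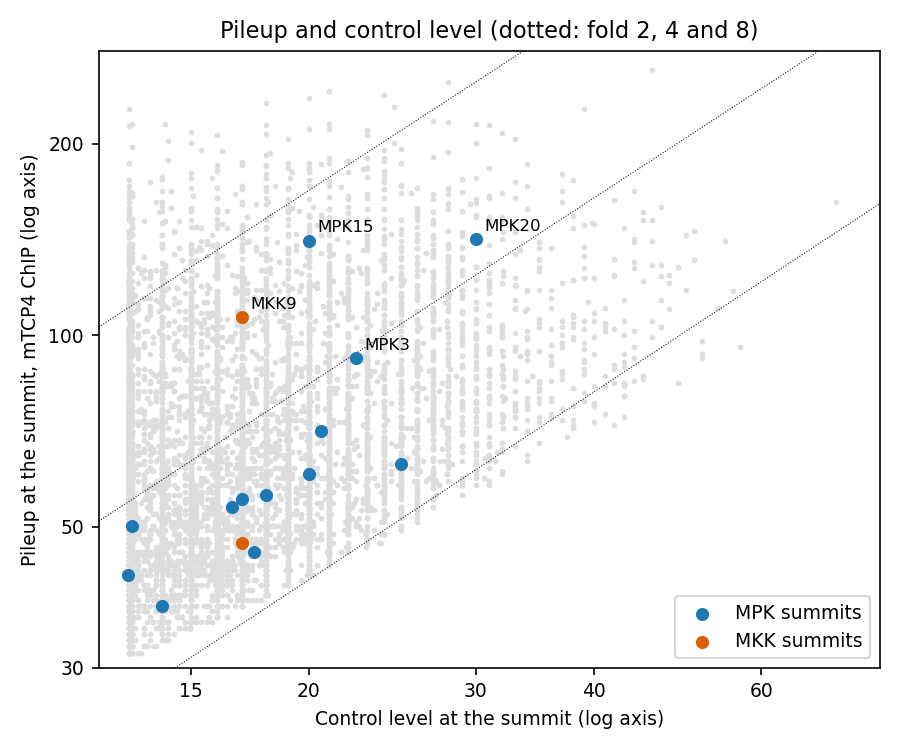
Pileup in the mTCP4 ChIP library (y axis, log) against the control level (x axis, log) at each summit. Grey points are all 7470 summits, blue and orange points the summits at MPK and MKK genes, and dotted lines mark folds of 2, 4 and 8. The main summits of MPK15 and MPK20 have nearly equal pileups, 140.75 and 141.48, over control levels of 20 and 30.

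The other tiers of the cascade were read from lists chosen with earlier results known. Of 23 MAP3K genes, the tier above the MKKs, 4 had a summit (17.4%), against 19.7% of all genes. These genes were long, with a median of 3859 bp, and 21 of the 23 had a larger gap over 1000 bp. Of those 21, 4 had a summit, against 22.8% of all genes with such a gap. The difference was not tested. The MAP3K genes with a summit were MAPKKK7 (5.21, 4.24 to 6.34), MAPKKK13 (3.88, 3.18 to 4.69), the ethylene signalling repressor CTR1 (2.88, 2.36 to 3.48) and MAPKKK17 (1.90, 1.57 to 2.27). MEKK1, the MAP3K above MKK1 and MKK2, and YDA, the MAP3K above MKK4 and MKK5, had none.

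Of 7 phosphatases that switch MAP kinases off, 3 had a summit (42.9%), against 19.7% of all genes. The exact 95% binomial interval of the phosphatase share was 9.9 to 81.6%, and it is not used as a test. The difference was not tested, and nothing is read from this count. The fold was 3.37 (2.72 to 4.13) at PHS1, which acts on MPK18, 3.00 (2.34 to 3.79) at MKP2 and 2.93 (2.35 to 3.60) at AP2C1. PHS1 had 2 summits and AP2C1 had 3. All 3 folds were below the median of all summits.

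Of 15 receptors and ligands that feed into the cascades, 8 had a summit (53.3%), against 19.7% of all genes. The highest folds were at EFR, an immune receptor, with 6.84 (5.90 to 7.88), at EPFL9, a peptide that promotes stomata, with 6.03 (5.10 to 7.08), and at EPF1, a peptide that represses them, with 5.27 (4.35 to 6.32). FLS2, the flagellin receptor, had 3.61 (3.03 to 4.28). Of 17 genes for substrates of MAP kinases and their partners, 9 had a summit (52.9%), against the same 19.7%. These were led by SCRM2, a bHLH gene of stomatal development, with 8.83 (7.56 to 10.2). ERF104 followed with 5.14 (4.34 to 6.03), BZR1 with 4.58 (3.70 to 5.61) and the microtubule protein gene MAP65-1 with 4.45 (3.61 to 5.43). In each of these last lists 11 genes had a larger gap over 1000 bp. A summit lay at 7 of these 11 receptor and ligand genes and at 6 of these 11 substrate genes. Of all genes with such a gap 22.8% had a summit. The shares of these lists stood above those of the MAP3K and MKK tiers. The lists were chosen with earlier results known, and no difference was tested.

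A further kinase family of plant signalling gave a comparison for the size of these shares. Of 26 CIPK genes, which code for kinases bound by calcium sensors, 16 had a summit (61.5%). Of the 10 genes for those CBL sensors 5 had one. The share of all protein-coding genes was 19.7%. The MPK share of 47.4% was below both. The exact 95% binomial intervals were 40.6 to 79.8% for CIPK and 18.7 to 81.3% for CBL. Their overlap with that of MPK is not used as a test. Among genes whose larger gap was over 1000 bp, a summit lay at 13 of 23 CIPK, 4 of 7 CBL and 8 of 13 MPK genes. Of all protein-coding genes with such a gap 22.8% had one. There the MPK share was not below those of CIPK and CBL. These differences were not tested. The median of the highest fold per gene was 3.32 for MPK, 3.51 for CIPK, 3.27 for CBL and 3.60 for all protein-coding genes with a summit.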

How the data were processed

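Anti-Myc ChIP and input DNA of 4 libraries was sequenced, 1 of each kind per genotype. Bowtie 0.12.9, MACS2 2.1.1 and build TAIR10 are named in the submitters' processing notes. The sources used here state neither the calling threshold nor whether the inputs were used. Per the file headers, the deposited list gives for each summit the pileup (a signal), the fold (a linear ratio of pileup to control level) and p-values and q-values as −log10. The control level was recovered from the pileup and fold with the MACS2 pseudocount of 1. All pileups (100%) were whole multiples of 0.737 within 0.01, taken as fragments. Library totals were not analysed here, so depth is known only at summits, where fragments ran from 43 to 355.

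Summits were joined to the genes of a RefSeq table of assembly TAIR10.1, whose coordinates are not printed. As a check of shared coordinates, summits were shifted in steps of 100 bp to at most 1000 bp either way, and the share inside genes was lowest at a shift of 0. The join was tested on simulated data. Members, lists and alternatives were chosen with earlier results of these data known. All members are named, and of each other list up to 4 genes with the highest fold. Of 66 names in the other lists 62 matched, and AP2C2, AP2C3, AP2C4 and ASR3 did not. PHS1, FLS2 and ER are symbols of several genes, and the phosphatase and receptor genes were taken by locus. The planned descriptions of promoter motifs and activation loops were not run, as no sequence was used here. Analyses used Python 3.11.15, pandas 2.3.3, numpy 2.4.6 and scipy 1.17.1.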

Additional observations from a re-analysis of the deposited data

How the results depend on the processing

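The count of 9 MPK genes stayed between 7 and 12 under 8 of the 10 alternatives listed at the outset, and 10 of 20 with ATMPK13 added, a choice made after seeing the data. Over those 8 the share of all genes ran from 14.8% with a reach of 500 bp to 48.4% with whole intervals. The MPK shares there were 42.1% and 63.2%. With nearest genes only the shares were 36.8% for MPK and 15.3% for all genes. With the upper 50% of summits by fold the MPK count was 4 (21.1%), against 1 MKK gene and 2947 genes in all (10.7%). Restricted to the lowest control level it was 1 (5.26%), against 0 MKK genes and 870 in all (3.17%). Fewer summits enter by construction in both. The count of 2 MKK genes was 1 with a reach of 500 bp and with summits outside the gene only. It was 3 with a reach of 2000 bp, and 5 with whole intervals, which gave 13283 genes in all. The MPK share exceeded the MKK share by 27.4 percentage points as reported. This fell to 16.8 with nearest genes only, 13.2 with whole intervals, 11.1 with the upper 50% of summits and 5.26 at the lowest control level, where it rests on 1 MPK gene against none, and it was 22.6 to 37.4 in the other alternatives. With whole intervals 50% of MKK genes and 48.4% of all genes were counted. With nearest genes only, MPK3 and MPK12 dropped out. The highest fold moved beyond its interval at MPK15 with a reach of 500 bp (2.45) and at MPK18 with a reach of 2000 bp (6.64). No paired analysis was possible because each group has 1 library.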

Other observations

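On chromosome 1 an MPK gene of group D and an MKK gene of group D lie near each other in 2 places. MPK8 and MKK7 are 67805 bp apart with 21 protein-coding genes between them, and MKK9 and MPK15 are 59227 bp apart with 18 between them. Both genes of the second pair had a summit, with folds of 5.99 at MKK9 and 6.75 at MPK15, the highest of all members. Of the first pair MPK8 had a summit with a fold of 3.65, and MKK7 had its nearest at 1789 bp with a fold of 3.35. The interval of MPK15 lay above that of MPK8. Between the genes of the pairs the list held 3 and 5 summits in all. The 5 between MKK9 and MPK15 include the MPK15 summit with a fold of 6.75 and another 1811 bp from MPK15. This pattern was noticed in the data and was not tested.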
